A study of Mus musculus with 48 samples.

Results

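Blood endothelial cells (BECs) of the heart were compared between mice infused with angiotensin II together with VEGFCc156s (angII+VEGFC) and mice given albumin (ctrl), to ask how far the cardiac blood endothelium of mice given the combined treatment differed from that of control mice. The libraries were chosen by their labels alone, as the heart BEC libraries of the angII+VEGFC group (n = 3) and of the ctrl group (n = 4), which are 7 of the 48 libraries of the study. All mice carried the same Prox1-eGFP knock-in allele, in which eGFP follows the endogenous Prox1 gene, so that lymphatic endothelial cells (LECs) are green and BECs are not. Ctrl mice received bovine serum albumin from a subcutaneous osmotic minipump, angII mice (n = 5) angiotensin II with albumin, and angII+VEGFC mice angiotensin II with VEGFCc156s, a VEGF-C with a cysteine to serine substitution that signals through VEGFR3. No group received VEGFCc156s alone in these libraries, so the contrast of angII+VEGFC with ctrl covers both agents at once and cannot tell them apart. By the labels the 4 ctrl mice were 9, 8, 16 and 16 months old, the 5 angII mice 8, 14, 16, 16 and 14 months and the 3 angII+VEGFC mice 15, 8 and 8 months. Replicates 1 and 3 of ctrl, replicates 1, 3 and 5 of angII and replicate 2 of angII+VEGFC were sequenced in batch 1, and the other libraries in batch 2. Each library was made from the sorted cells of 1 mouse, gated as live, CD45.2-, CD31+ and eGFP-.

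The blood endothelium of the heart is mostly a dense capillary bed, with smaller arterial, venous and endocardial parts. Its capillary cells carry the fatty acids that the working muscle burns, through the lipoprotein lipase anchor Gpihbp1 and the fatty acid transporter Cd36. They rest on a basement membrane rich in collagen IV. Angiotensin II acts through the receptor Agtr1a on vascular cells and is known to raise blood pressure and to load the heart, while VEGF-C is best known as the growth factor of lymphatic endothelium, whose receptor VEGFR3 is encoded by Flt4.

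The markers of blood endothelium fitted the label. Over the 12 heart BEC libraries Pecam1, which encodes CD31, was at 576 to 902 TPM, the nitric oxide synthase Nos3 at 264 to 350.2 TPM and Cd36 at 1925 to 3510.3 TPM, whereas heart LECs had 142 to 991 TPM of Cd36. Prox1, the defining gene of LECs and the gene that carries the reporter, was at 1.06 to 5.72 TPM in heart BECs against 97.6 to 230 TPM in heart LECs, and the leukocyte gene Ptprc was at 1.40 to 6.24 TPM. Between 15423 and 21913 genes reached 1 TPM in the ctrl libraries and between 15476 and 20652 in the angII+VEGFC libraries. On the first 2 principal components, each taken alone, the library farthest from the mean was angII+VEGFC 2, 2.23 SD away on the second. It was the only angII+VEGFC library of batch 1. Ctrl 1 came next, 2.12 SD away on the first. The fibroblast markers set 3 libraries apart: their summed level was 13774 TPM in ctrl 1, 7817 TPM in angII 1 and 8728 TPM in angII+VEGFC 1, against 1142 to 2158 TPM in the other 9. In bulk libraries such as these, fewer cells of a type and less RNA per cell cannot be told apart. The 4 ctrl and 3 angII+VEGFC libraries were compared in 13 library measures by two-sided exact permutation tests. The smallest p possible is 0.0571, so no measure could have passed at 0.05. The smallest p after adjustment over the 13 was 0.297, and these tests cannot decide whether a measure differed.

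**Figure D1:**
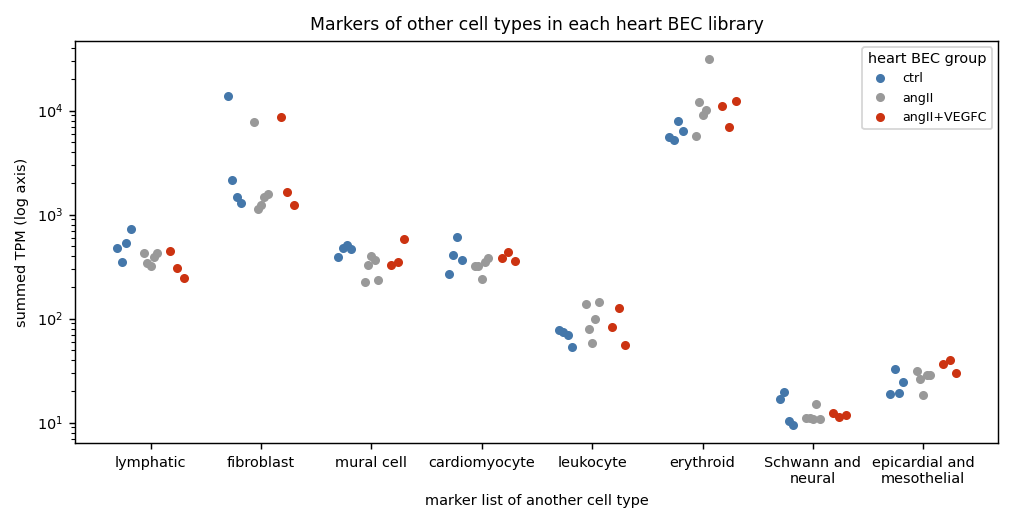
Summed level (TPM, log axis) of the marker genes of 8 other cell types in each heart BEC library, with 1 point per library coloured by group. Fibroblast markers separate 1 library of each group (13774, 7817 and 8728 TPM) from the rest, and 1 angII library has the highest erythroid sum (31326 TPM).

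Across the heart BEC transcriptome no gene passed the test between angII+VEGFC and ctrl. Of 21281 genes tested with limma, 0 had an adjusted p-value under 0.05 (0%), with a smallest adjusted p of 0.177. An unadjusted p under 0.05 was found for 1172 genes against 1064 expected if no gene differed, 529 of them higher in angII+VEGFC (2.49% of the genes tested) and 643 lower (3.02%). The 3 angII+VEGFC libraries lay wholly above the 4 ctrl libraries for 543 genes (2.55%) and wholly below for 506 (2.38%). These shares are the background for the counts of genes given for each group of genes in the following paragraphs. For a gene that did not differ, 4 and 3 libraries would separate wholly, in either direction, with a probability of 0.0571. The median fold change was -0.01 on the log2(TPM + 1) scale, with a median standard error of 0.32, and for the 6331 genes with a group mean of 20 TPM or more the median was 0.05 with a standard error of 0.17. Angiotensin II without VEGFCc156s was also compared with the same ctrl libraries, with 0 genes adjusted and 1149 unadjusted, and angII+VEGFC against angII gave 0 and 551. Because the angII and angII+VEGFC contrasts share the 4 ctrl libraries, their fold changes are set side by side below and were not tested against each other by their likeness.

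**Figure D2:**
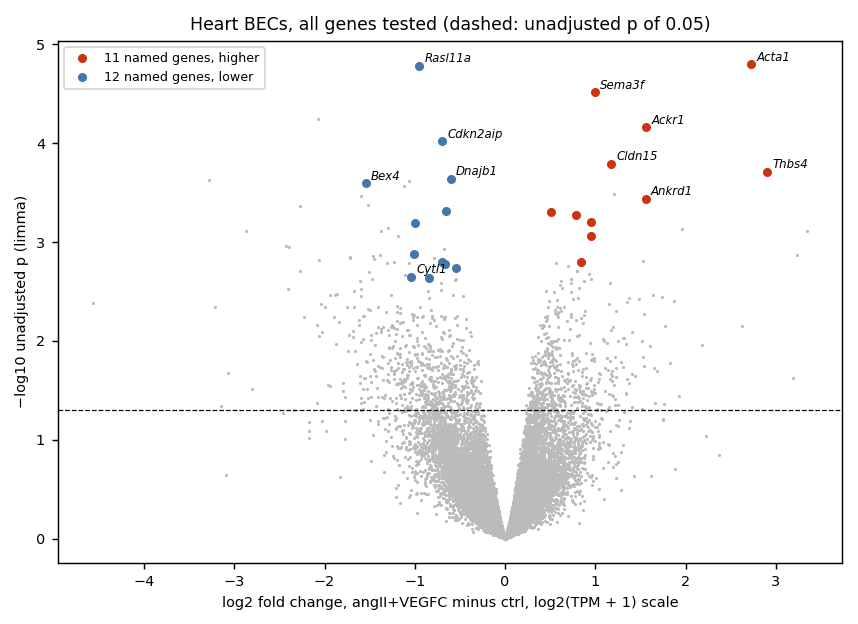
Log2 fold change of angII+VEGFC minus ctrl (x axis, log2(TPM + 1) scale) against -log10 of the unadjusted limma p (y axis) for the 21281 genes tested in heart BECs. The 11 higher and 12 lower named genes are coloured, and none reached an adjusted p under 0.05 (smallest 0.177).

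The genes named next were picked as those with the smallest p-values among genes at 5 TPM or more in which the 2 groups did not overlap, 11 higher and 12 lower, from 210 such genes that were higher in angII+VEGFC and 141 that were lower. The separation of the libraries is therefore part of how they were chosen, and none passed the adjusted test. Genomic positions are those of GRCm38.

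Among the higher genes the lowest p-value was that of Acta1, the skeletal muscle actin that heart muscle re-expresses under load (chromosome 8, 123891769 to 123894751, minus strand). Its level was 7.12, 3.27, 4.77 and 4.20 TPM in ctrl 1 to 4 and 32.0, 42.1 and 26.7 TPM in angII+VEGFC 1 to 3. Every angII+VEGFC library was thus far above every ctrl library, and the fold change was 2.73 ± 0.40 (log2, SE; adjusted p = 0.177), with 2.66 within batch 1 and 2.68 within batch 2. The angII libraries had 7.96, 30.8, 31.0, 31.3 and 16.1 TPM, a fold change of 1.85 against ctrl. In a fit of only the ctrl and angII+VEGFC libraries the adjusted p of Acta1 was 0.0492. Reads of Acta1 can be shared with its near-identical paralogs Actc1 and Acta2, so its level is uncertain to that extent. Cardiomyocyte markers were found in every library: Myh6 was at 3.17 to 17.1 TPM in ctrl and 6.89 to 13.4 TPM in angII+VEGFC, and the summed level of the 14 cardiomyocyte markers was 268 to 614 TPM and 355 to 438 TPM (exact p = 0.914). The single markers were mixed, as 9 of the 14 had a fold change above 0 with a median of 0.13, and 3 had an unadjusted p under 0.05, Nppa above 0 and Tnni3 and Myl2 below. Their part in the difference of Acta1 was not tested.

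Ankrd1 and Thbs4 were also among the 11 higher genes. Ankrd1, a mechanically induced ankyrin repeat protein, was at 3.42, 2.501, 4.03 and 2.88 TPM in ctrl and 8.30, 17.7 and 8.68 TPM in angII+VEGFC, a fold change of 1.56 ± 0.32 (log2, SE). Thbs4, the matrix glycoprotein thrombospondin 4, was at 2.26, 0.040, 0.487 and 1.01 TPM in ctrl and 17.0, 20.5 and 3.15 TPM in angII+VEGFC, a fold change of 2.90 ± 0.56. For angII the fold changes were 0.78 for Ankrd1 and 1.76 for Thbs4. The lowest angII+VEGFC value of Thbs4, in angII+VEGFC 3, lay close to its highest ctrl value, in ctrl 1. Nppa, the atrial natriuretic peptide and one of the cardiomyocyte markers, was at 1.33 to 11.4 TPM in ctrl and at 52.5, 99.6 and 7.60 TPM in angII+VEGFC, so 1 of the 3 libraries stayed within the ctrl range (fold change 2.62 ± 0.81). The troponin I gene Tnni3 and the myosin light chain gene Myl2 had fold changes of -1.01 ± 0.30 and -0.88 ± 0.30.

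The higher genes with known roles in endothelium included Sema3f, Ackr1 and Cldn15. Sema3f, a secreted semaphorin that binds neuropilin-2 (chromosome 9, 107681500 to 107710475), was at 63.5, 81.0, 63.2 and 59.3 TPM in ctrl and 147, 128 and 123 TPM in angII+VEGFC. The 3 treated libraries lay close together and all above ctrl, and the fold change was 0.99 ± 0.16 (log2, SE; adjusted p = 0.218), with 0.97 for angII. Ackr1, an atypical chemokine receptor found on venules (chromosome 1, 173331886 to 173333750), was at 1.35, 2.21, 1.84 and 2.48 TPM in ctrl and 5.77, 8.74 and 9.62 TPM in angII+VEGFC. Its level was low in both groups and its fold change was 1.57 ± 0.27 (adjusted p = 0.294), with 1.22 for angII. Cldn15, a claudin of tight junctions (chromosome 5, 136966616 to 136975858), was at 13.0, 13.0, 18.7 and 22.7 TPM in ctrl and 39.1, 40.9 and 30.7 TPM in angII+VEGFC, a fold change of 1.17 ± 0.22, with 0.41 for angII.

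Receptors and an inhibitor of proteolysis were also among the higher genes. Ifngr1, the ligand-binding chain of the interferon-gamma receptor, was at 215, 238, 240.2 and 270.3 TPM in ctrl and 337, 333 and 344 TPM in angII+VEGFC, a fold change of 0.51 ± 0.11 (log2, SE). Its fold change for angII was 0.39. Cysltr1, a receptor for cysteinyl leukotrienes, was at 8.69 to 12.9 TPM in ctrl and 17.3 to 25.0 TPM in angII+VEGFC. Ctla2a, an inhibitor of cathepsin-like proteases whose reads may be shared with its paralog Ctla2b, was at 543 to 691 TPM in ctrl and 795 to 1534 TPM in angII+VEGFC. Lnx1, a ubiquitin ligase, and Aplp1, a relative of the amyloid precursor protein, had fold changes of 0.78 ± 0.17 and 0.95 ± 0.22. Those for angII were 0.81 and 0.99. The fold change of Ctla2a was 1.49 within batch 1 and 0.45 within batch 2.

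Among the lower genes the lowest p-value was that of Rasl11a, a small Ras-like GTPase (chromosome 5, 146845071 to 146847726, plus strand). Its level was 93.2, 123, 97.0 and 133 TPM in ctrl and 66.1, 50.3 and 65.2 TPM in angII+VEGFC. The lowest ctrl library was well above the highest treated one, and the fold change was -0.95 ± 0.14 (log2, SE; adjusted p = 0.177), with -0.90 and -0.95 within the batches and -0.74 for angII. Cdkn2aip, which encodes a binding partner of the tumour suppressor ARF (chromosome 8, 47709344 to 47713932), was at 89.5, 73.7, 78.2 and 81.7 TPM in ctrl and 47.6, 53.3 and 45.5 TPM in angII+VEGFC. Its fold change was -0.70 ± 0.12 (adjusted p = 0.339), while the angII libraries, at 67.5 to 77.8 TPM, overlapped ctrl with a fold change of -0.16. Zc3h13, a subunit of the complex that methylates adenosines in mRNA, had a similar order, with 18.4 to 23.8 TPM in ctrl, 15.7 to 22.9 TPM in angII and 8.60 to 16.6 TPM in angII+VEGFC. The difference of angII+VEGFC from angII itself had no gene with an adjusted p under 0.05.

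Bex4, an X-linked gene first described in brain, was at 12.9, 16.2, 12.1 and 7.91 TPM in ctrl and 3.28, 4.58 and 3.12 TPM in angII+VEGFC, a fold change of -1.54 ± 0.30. For angII it was -1.04. Cytl1, which encodes a secreted cytokine-like protein, was at 570.1, 688, 466 and 401 TPM in ctrl, 191 to 319 TPM in angII and 342, 155 and 350.1 TPM in angII+VEGFC, a fold change of -1.04 ± 0.27 against ctrl and -1.06 for angII. The ribosomal protein genes Rpl22l1 (-0.65 ± 0.14) and Rpl13a (-0.55 ± 0.14), whose reads can also fall on processed pseudogenes, and the mitochondrial ribosome assembly factor Malsu1 (-0.70 ± 0.17) were among the lower genes. Ribosomal protein genes together held 3.94% to 4.78% of the TPM in ctrl and 3.14% to 3.97% in angII+VEGFC (exact p = 0.114). Gprc5c, an orphan receptor, was at 11.2 to 16.2 TPM and 4.30 to 7.53 TPM, and Pir, a nuclear iron-binding protein, at 21.7 to 32.5 TPM and 14.3 to 21.4 TPM. The last of the 12, Epb41l4aos, is an RNA antisense to its neighbour, and reads of the 2 strands cannot be told apart without a stranded count.

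**Figure D3:**
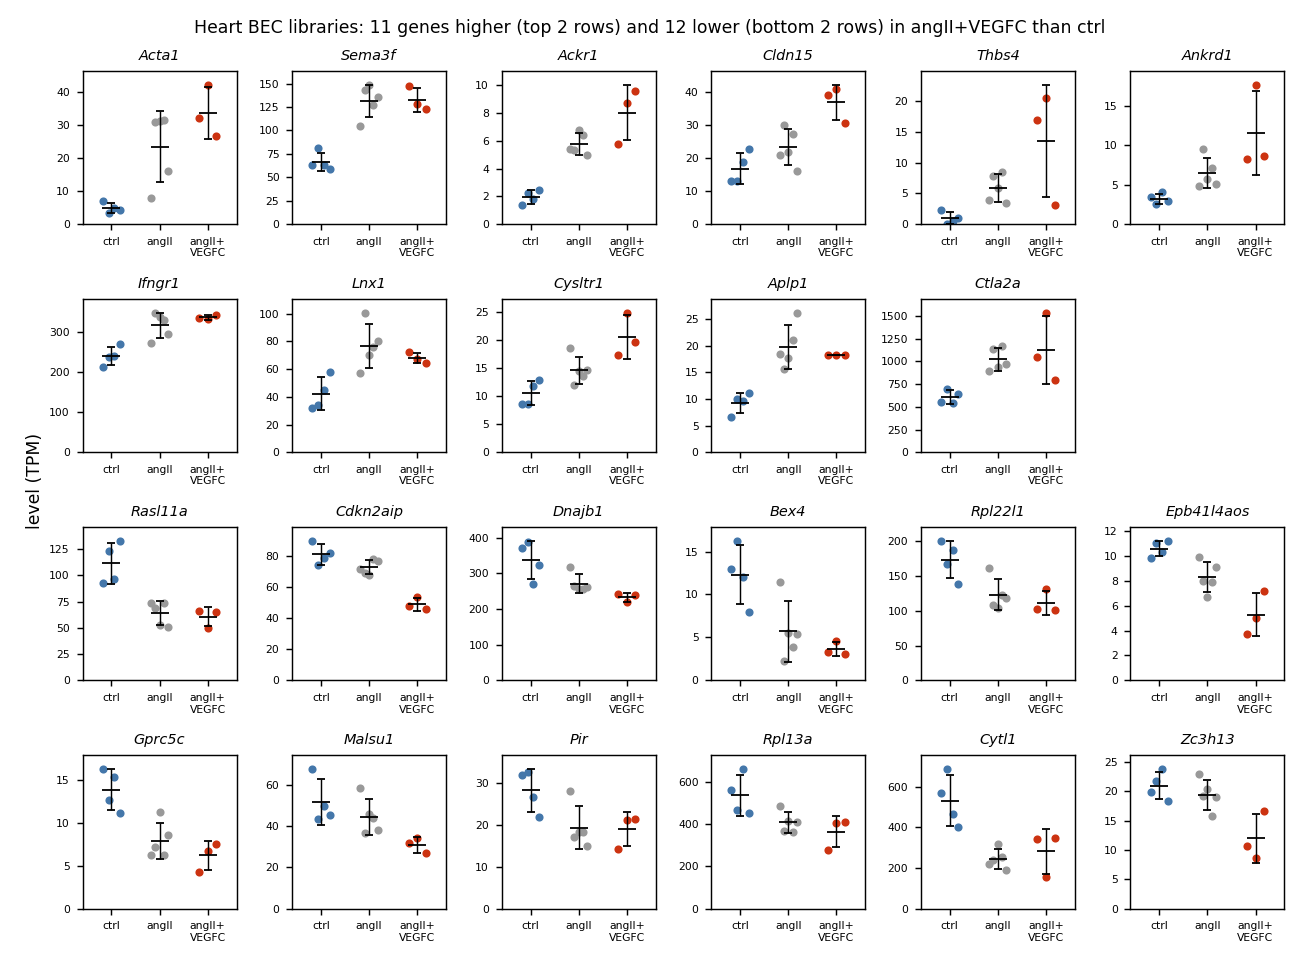
Level (TPM) of the 11 named genes higher and the 12 lower in angII+VEGFC than in ctrl, 1 panel per gene, in the 4 ctrl, 5 angII and 3 angII+VEGFC heart BEC libraries. Points are libraries, and bars give the group mean and SD; for example Acta1 lay at 3.27 to 7.12 TPM in ctrl and at 26.7 to 42.1 TPM in angII+VEGFC.

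Gene lists were then read by the roles of their members. No member of any of the 36 lists had an adjusted p under 0.05, so the lists are described by their counts and medians beside those of all genes (median -0.01, 2.49% higher and 3.02% lower at an unadjusted p under 0.05). Lists can share genes, and the genes of a list are not independent. For angII against ctrl, the medians were 0.03 for fatty acid handling, 0.01 for VEGF family, -0.04 for renin-angiotensin and 0.13 for junction genes. They were -0.03 for arterial, -0.16 for venous, -0.24 for endocardial, -0.12 for chemokine and cytokine, and 0.07 for fibrillar matrix genes. Those of other lists stand beside them below where given.

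**Figure D4:**
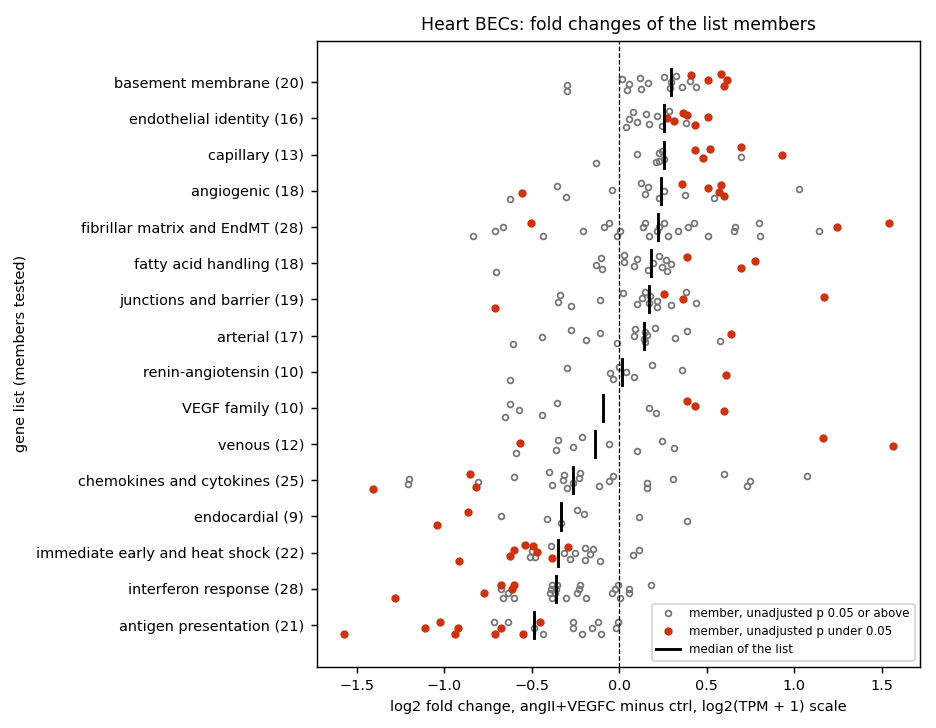
Log2 fold change of angII+VEGFC minus ctrl (x axis, log2(TPM + 1) scale) for each tested member of 16 gene lists (y axis, with the number of members), filled where the unadjusted p was under 0.05, with the median as a bar. Antigen presentation has the lowest median (-0.49) and basement membrane the highest (0.29).

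The genes that define blood endothelium lay slightly higher in angII+VEGFC. All 16 endothelial identity genes tested had a fold change above 0, with a median of 0.26 (0.24 for angII). Of the 16, 6 had an unadjusted p under 0.05, all higher. Kdr, which encodes VEGFR2, was at 526, 820.2, 728 and 889 TPM in ctrl and 928, 981 and 991 TPM in angII+VEGFC. The 3 treated libraries were all above ctrl and close together, with a fold change of 0.43 ± 0.16 (log2, SE). Esam, an endothelial adhesion molecule, was at 955 to 1329 TPM in ctrl and 1335 to 1503 TPM in angII+VEGFC, a fold change of 0.37 ± 0.13. Ly6c1, a surface protein of capillary cells that reads of its paralog Ly6c2 can reach, was at 3839 to 5675 TPM and 5745 to 6799 TPM. Flt1, Robo4 and Tie1, encoding a VEGF receptor, a guidance receptor and a receptor kinase, had fold changes of 0.39, 0.31 and 0.27, with libraries that overlapped. Ctrl 1, the library with the highest fibroblast sum, was the lowest in Pecam1 (576 TPM) and in the cadherin gene Cdh5 (110 TPM). Without ctrl 1 the list median was 0.15, and within batch 2 it was 0.11. Without the 3 libraries with high fibroblast sums it was 0.30. The part of other cells in these differences was not tested.

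Of the 13 genes of the capillary list 12 had a fold change above 0, and the median was 0.26 (0.34 for angII). At an unadjusted p under 0.05, 5 were higher, with no overlap between the groups in 5. Gpihbp1, which holds lipoprotein lipase on the capillary wall, was at 1389, 1431, 1869 and 2207 TPM in ctrl and 2630.3, 3037 and 2345 TPM in angII+VEGFC, a fold change of 0.70 ± 0.18 (log2, SE). Aqp1, a water channel, was at 712, 1174, 1163 and 1268 TPM in ctrl and 2233, 1376 and 2531 TPM in angII+VEGFC, a fold change of 0.93 ± 0.24, with 0.85 for angII. Both genes were above ctrl in all 3 treated libraries, although Aqp1 in angII+VEGFC 2 was near the top of ctrl. Rgcc, a cell cycle regulator abundant in heart capillaries, was at 1258 to 1766 TPM in ctrl and 1869.6 to 2186 TPM in angII+VEGFC. Car4, a carbonic anhydrase of the capillary surface, overlapped between the groups, at 168 to 323 TPM and 183 to 411 TPM. The list median was 0.54 without angII+VEGFC 1 and 0.43 without angII+VEGFC 2. It was also 0.43 without the 3 libraries with high fibroblast sums.

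Of the 18 genes of fatty acid handling 14 were above 0, with a median of 0.18 and 3 higher at an unadjusted p under 0.05. Lpl, the lipase that Gpihbp1 binds, was at 336, 384, 269 and 386 TPM in ctrl, 511 to 1081 TPM in angII and 655, 748 and 405 TPM in angII+VEGFC. All 8 treated libraries were above the 4 ctrl libraries, although angII+VEGFC 3 was so by little, and the fold changes were 0.77 ± 0.28 for angII+VEGFC and 0.97 for angII. Pparg, a nuclear receptor of lipid metabolism, had a fold change of 0.39 ± 0.17 with overlapping libraries, whereas Cd36 (2389 to 3302 TPM in ctrl, 3106 to 3372 TPM in angII+VEGFC) and the fatty acid binding protein Fabp4 (8213 to 12283 TPM, 9088 to 12310.0 TPM) had fold changes of 0.25 ± 0.18 and 0.10 ± 0.18. The list median was 0.098 without ctrl 2, 0.099 without angII+VEGFC 3 and 0.28 within batch 1.

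In the VEGF family the receptors were the members with the largest positive fold changes. Flt4, encoding the VEGFR3 that VEGFCc156s binds, was at 25.4, 41.5, 47.8 and 49.9 TPM in ctrl and 54.1, 61.1 and 58.2 TPM in angII+VEGFC. The treated libraries lay just above ctrl, with a fold change of 0.60 ± 0.20 (log2, SE), and the angII libraries spanned both groups at 35.8 to 64.4 TPM. Other lymphatic genes did not share this order: Prox1 and Lyve1 had fold changes of -0.70 ± 0.42 and -0.21 ± 0.24, and the summed lymphatic markers were 349 to 728 TPM in ctrl and 247 to 443 TPM in angII+VEGFC (exact p = 0.114). Among the ligands, the mouse Vegfc gene was at 91.5 to 135 TPM in ctrl and 52.9 to 125 TPM in angII+VEGFC (-0.44 ± 0.28), Vegfa had -0.36 ± 0.26 and Pgf -0.62 ± 0.33. Over the 10 genes of the family 5 were above 0 and 5 below, with a median of -0.09, whose sign turned without ctrl 2 (0.054), without angII+VEGFC 2 (0.020) or 3 (0.049) and within batch 1 (0.19).

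Genes of angiogenic endothelium had a median of 0.24 (0.22 for angII) over 18 members, 13 of them above 0. At an unadjusted p under 0.05, 5 were higher and 1 lower. Hif1a, the oxygen-regulated transcription factor, was at 51.5 to 60.3 TPM in ctrl and 83.0, 109 and 63.8 TPM in angII+VEGFC, a fold change of 0.57 ± 0.17. Trp53i11, a p53-induced gene, was at 264 to 402 TPM and 419 to 488 TPM, a fold change of 0.36 ± 0.13. The tip cell peptide Apln went the other way, with 36.1 to 61.9 TPM in ctrl and 27.7 to 49.3 TPM in angII+VEGFC (-0.56 ± 0.23), and its sign differed between the batches (0.33 within batch 1 and -1.01 within batch 2). The median of the list was 0.58 within batch 1, where angII+VEGFC 2 was the only treated library, and 0.08 within batch 2.

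Of the renin-angiotensin genes, several of which heart endothelium scarcely expresses, 10 of 16 passed the filter of 1 TPM in 3 libraries, 5 were above 0 and 5 below, and the median was 0.02 (-0.15 within batch 1 and 0.16 within batch 2). Ace, the angiotensin-converting enzyme of the endothelial surface, was at 43.7, 24.9, 25.0 and 17.5 TPM in ctrl and 52.9, 37.2 and 31.6 TPM in angII+VEGFC, a fold change of 0.61 ± 0.26 with libraries that overlapped. The receptor Agtr1a was at 0.718 to 2.27 TPM in ctrl and 0.701 to 1.87 TPM in angII+VEGFC, a fold change of -0.04 ± 0.32.

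By vessel type, the arterial list had a median of 0.14 over 17 genes, 11 above 0, and 1 gene, the elastin gene Eln (0.64 ± 0.27), with an unadjusted p under 0.05. The fold change of Eln was -0.15 without the 3 libraries with high fibroblast sums. The arterial median was 0.23, 0.054 and 0.061 without angII+VEGFC 1, 2 and 3 in turn, 0.092 without ctrl 3, 0.029 within batch 1 and -0.0030 within batch 2. The venous list of 12 genes had 7 below 0 and a median of -0.14, yet its members with the largest fold changes were higher, Ackr1 and Lrg1. Lrg1, a secreted glycoprotein of inflamed venules, was at 85.8, 138, 99.8 and 105 TPM in ctrl, 157 to 253 TPM in angII and 199.8, 462 and 159.6 TPM in angII+VEGFC, a fold change of 1.17 ± 0.31 with all 8 treated libraries above ctrl. Vcam1, the adhesion molecule for leukocytes, was at 229.5 to 458 TPM in ctrl and 168 to 299 TPM in angII+VEGFC (-0.57 ± 0.24). Of the 9 endocardial genes tested of 10 listed, 7 were below 0 with a median of -0.33, and Cytl1 and Tmem108 (-0.86 ± 0.31) had an unadjusted p under 0.05. The venous median turned to 0.11 without ctrl 2 and to 0.057 within batch 1, and it was -0.43 without angII+VEGFC 1, -0.022 without angII+VEGFC 3 and -0.073 without ctrl 1. The endocardial median was -0.016 without ctrl 2, -0.10 without angII+VEGFC 3, -0.63 without angII+VEGFC 1 and -0.59 within batch 2. Without the 3 libraries with high fibroblast sums the endocardial median was -1.01 and the venous median -0.54. The size of both medians thus varied with the libraries in the fit.

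Genes of antigen presentation lay lower in angII+VEGFC. All 21 genes tested had a fold change below 0, the median was -0.49 (-0.15 for angII), and 9 of the 21 had an unadjusted p under 0.05, all lower, against 3.02% of all genes. The 3 treated libraries were below all 4 ctrl libraries in 9 genes, against 2.38% of all genes. In the MHC class II group, H2-Ab1, which encodes a beta chain, was at 66.7, 45.8, 80.6 and 34.4 TPM in ctrl and 23.9, 25.9 and 29.8 TPM in angII+VEGFC. The ctrl libraries spread over more than a factor of 2 while the treated libraries were close together, and the fold change was -0.92 ± 0.28 (log2, SE). H2-Eb1, another beta chain, was at 14.5, 16.6, 24.8 and 7.12 TPM and 5.55, 6.18 and 5.56 TPM, a fold change of -1.11 ± 0.37. H2-DMa, which loads peptides on class II molecules, was at 15.1, 5.09, 9.87 and 4.50 TPM and 1.08, 1.41 and 4.39 TPM, a fold change of -1.57 ± 0.47. Cd74, the invariant chain, was at 44.7 to 117 TPM and 25.2 to 49.3 TPM, so that the groups overlapped (-1.02 ± 0.34). The class II activator Ciita itself was near the limit of the filter, at 0.211 to 2.70 TPM in ctrl and 0.510 to 1.34 TPM in angII+VEGFC (-0.02 ± 0.34).

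The class I genes were expressed at far higher levels and had smaller fold changes. H2-K1 was at 2472, 2065, 3126 and 2046 TPM in ctrl and 1635, 1686 and 1744 TPM in angII+VEGFC, a fold change of -0.45 ± 0.17 (log2, SE). H2-D1 was at 3634 to 4655 TPM and 3286 to 3419.9 TPM (-0.21 ± 0.15), with no overlap, and B2m, the light chain of every class I molecule, at 4304 to 6654 TPM and 3908 to 4384 TPM (-0.27 ± 0.17). The class I-like genes H2-Q4, H2-Q6 and H2-Q7 had fold changes of -0.55, -0.68 and -0.71, but they are near-identical copies that share reads, so they are not separate measurements. The difference was uneven across batches and libraries, as the list median was -0.81 within batch 1 and -0.22 within batch 2 and -0.32 without angII+VEGFC 2. Ctrl 3 was the highest ctrl library in H2-Ab1, H2-Eb1 and H2-K1. Leukocyte markers, which include cells that carry class II molecules, summed to 53.5 to 77.0 TPM in ctrl and 56.3 to 127 TPM in angII+VEGFC (exact p = 0.4), with Ptprc at 3.09 to 6.24 TPM and 1.40 to 5.57 TPM. Their part in these differences was not tested.

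**Figure D5:**
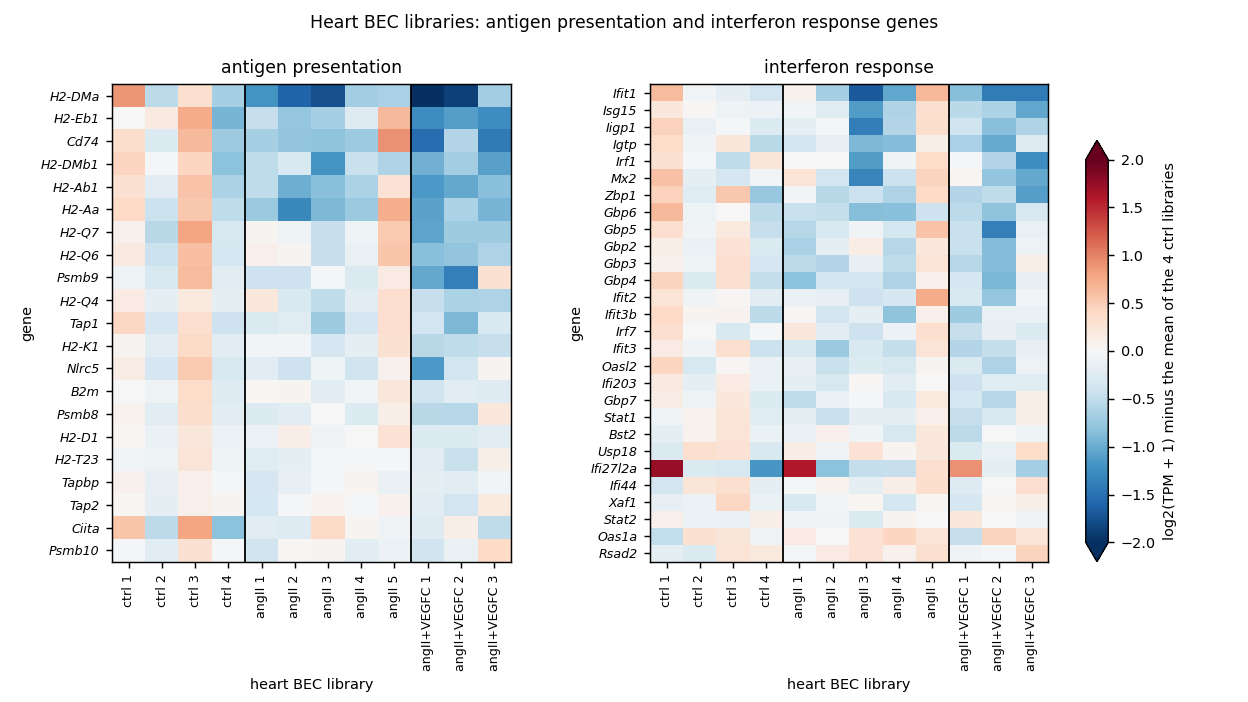
Level of the 21 antigen presentation genes and the 28 interferon response genes tested (rows) in each of the 12 heart BEC libraries (columns), as log2(TPM + 1) minus the mean of the 4 ctrl libraries. The 3 angII+VEGFC columns are mostly blue in antigen presentation (median fold change -0.49), and 1 angII library, angII 5, has Cd74 at 141 TPM against 42.1 to 46.5 TPM in the other angII libraries.

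Interferon response genes had 24 of 28 members below 0, a median of -0.36 (-0.18 for angII) and 5 lower at an unadjusted p under 0.05. Ifit1, an antiviral protein that binds foreign RNA caps, was at 216, 134, 120.4 and 106 TPM in ctrl and 76.3, 52.2 and 51.8 TPM in angII+VEGFC, a fold change of -1.28 ± 0.44 (log2, SE). Isg15, a ubiquitin-like modifier, was at 375, 327, 301 and 297 TPM and 222, 209 and 156 TPM, a fold change of -0.77 ± 0.27. For both genes the treated libraries were below every ctrl library, but the angII libraries ranged from 42.6 to 219.7 TPM and from 148 to 403 TPM and so covered both groups. The GTPases Gbp6 and Igtp and the nucleic acid sensor Zbp1 had fold changes of -0.60, -0.68 and -0.62, with overlap. Without angII+VEGFC 2 the list median was -0.12, and within batch 2 it was -0.10 against -0.74 within batch 1.

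Chemokines and cytokines had 18 of 25 members below 0 and a median of -0.27, with 3 lower at an unadjusted p under 0.05. Cxcl10, an interferon-induced chemokine for T cells, was at 301, 203, 152 and 145 TPM in ctrl and 121, 115 and 32.5 TPM in angII+VEGFC, a fold change of -1.41 ± 0.60. Cxcl9, its relative, was at 29.3 to 40.4 TPM and 16.4 to 20.5 TPM (-0.86 ± 0.38). Ccl21a, a chemokine of lymphatic vessels with several near-identical gene copies, overlapped at 164 to 563 TPM and 108 to 247 TPM (-0.82 ± 0.34). The list median depended on single libraries, at -0.56, -0.13 and -0.10 without angII+VEGFC 1, 2 and 3 in turn, -0.14 without ctrl 1 and -0.01 within batch 2.

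Immediate early and heat shock genes, which cells switch on within minutes of a stimulus, also lay lower, with 20 of 22 below 0, a median of -0.35 (-0.18 for angII) and 8 lower at an unadjusted p under 0.05. Dnajb1, a co-chaperone of Hsp70 and one of the 12 lower named genes, was at 369.6, 388, 269 and 323 TPM in ctrl and 241, 218 and 239.8 TPM in angII+VEGFC, a fold change of -0.60 ± 0.12 (log2, SE). Zfp36, which destabilises the mRNAs of cytokines, was at 3055, 2756, 2876 and 3381 TPM and 2313, 1944 and 1912 TPM, a fold change of -0.54 ± 0.16. Fos, a subunit of AP-1, was at 8857 to 10761 TPM and 6996 to 7819.5 TPM, a fold change of -0.38 ± 0.15. These transcripts were thus abundant in both groups, and the treated libraries were below ctrl in all 3 genes. Ier2 and the chaperone Hsp90aa1 did not overlap either (-0.30 ± 0.12 and -0.47 ± 0.19), whereas the transcription factors Egr1 and Egr2 (-0.49 and -0.62) and the chaperone Hsph1 (-0.92 ± 0.39) did. For Hsph1 ctrl 2 stood apart, at 269 TPM against 95.3 to 133 TPM in the other ctrl libraries, and within batch 1 its fold change was 0.18. The list median was -0.30 within batch 1 and -0.34 within batch 2 and stayed between -0.37 and -0.32 when any 1 of the 7 libraries was left out. The hearts were digested with warm enzymes before the cells were sorted, and the part of this handling in these levels was not tested.

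The basement membrane, which endothelium and pericytes lay down together, had 18 of 20 genes above 0, a median of 0.29 (0.20 for angII) and 5 higher at an unadjusted p under 0.05. Col4a2, a chain of collagen IV, was at 369, 647, 505 and 650.5 TPM in ctrl and 669, 952 and 891 TPM in angII+VEGFC, a fold change of 0.60 ± 0.20 (log2, SE; 0.57 for angII). Its partner Col4a1, which shares a promoter region with it, was at 600.5 to 1151 TPM and 1085 to 1546 TPM and overlapped (0.58 ± 0.22). Sparc, a collagen-binding glycoprotein, was at 2868 to 3448 TPM and 3541 to 5641 TPM, a fold change of 0.41 ± 0.17. The laminin chains Lama5 and Lamb1 had fold changes of 0.62 and 0.51, with overlap. The median was 0.56 within batch 1, 0.15 within batch 2 and 0.15 without angII+VEGFC 2.

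Fibrillar matrix genes and genes of the endothelial to mesenchymal transition had 19 of 28 members above 0 and a median of 0.22, which was -0.21 without angII+VEGFC 1, 0.37 without ctrl 1, 0.13 without ctrl 4 and -0.03 without the 3 libraries with high fibroblast sums. Postn, the matrix protein periostin, was at 34.0, 26.0, 24.7 and 22.2 TPM in ctrl and 133, 116 and 24.5 TPM in angII+VEGFC. So 2 treated libraries were well above ctrl and the third lay within it, with a fold change of 1.54 ± 0.46 (log2, SE). Ccn2, a matricellular growth factor, was at 193, 202, 63.9 and 72.3 TPM and 405, 467 and 171 TPM (1.25 ± 0.41), and its relative Ccn1 at 1545 to 2065 TPM and 1047 to 1459 TPM (-0.50 ± 0.17). The fibroblast gene Col3a1 was at 332 TPM in ctrl 1 and 27.0 to 66.7 TPM in the other ctrl libraries, and at 273, 167 and 38.8 TPM in angII+VEGFC. AngII+VEGFC 2, with 167 TPM, had a fibroblast sum of 1645 TPM, against 1289 to 2158 TPM in ctrl 2 to 4. Fibroblast RNA thus varied within both groups, and its part in the differences of matrix genes was not tested.

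The genes of cell junctions had 14 of 19 members above 0 and a median of 0.17, which was 0.29 without angII+VEGFC 1, 0.28 within batch 1 and 0.094 within batch 2. Beside Cldn15 and Esam, the beta-catenin gene Ctnnb1 had a fold change of 0.26 ± 0.12, and the tight junction gene Ocln was at 4.66 to 8.31 TPM in ctrl and 3.17 to 4.83 TPM in angII+VEGFC (-0.71 ± 0.23). Under quantile normalization and under median-of-ratios rescaling, the medians of the 16 lists plotted kept their sign except that of the renin-angiotensin genes.

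Whether the difference from ctrl was particular to BECs was asked through the difference between the effect of angII+VEGFC in heart BECs and that in the LECs of the same study, in one limma fit of 36 endothelial libraries. Of 32754 genes, 0 differed between heart BECs and heart LECs at an adjusted p under 0.05 (0%, smallest adjusted p = 0.104) and 1221 (3.73%) at an unadjusted one. Between heart BECs and diaphragm LECs 0 differed (0%, smallest adjusted p = 0.766), with 461 (1.41%) unadjusted. This fit used a single estimate of the spread per gene over all 36 libraries and treated libraries of the same mouse as independent. The SE of Acta1 in heart BECs was 0.67 in it, against 0.40 in the fit of heart BECs alone. Counts of 0 therefore do not show that the populations responded alike.

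In that fit Acta1 had a fold change of 2.74 ± 0.67 (log2, SE) for the BECs, 2.61 ± 0.67 for the LECs of the heart and -0.84 ± 0.67 for those of the diaphragm. The difference was 0.13 ± 0.93 from heart LECs and 3.57 ± 0.93 from diaphragm LECs (adjusted p = 1 for both). Ankrd1 had the same order, at 1.35, 1.31 and -1.82, with differences of 0.04 ± 0.95 and 3.17 ± 0.95. Neither gene's differences passed the test. Diaphragm LECs of ctrl mice had 22.2, 139, 137 and 32.5 TPM of Acta1, against 3.27 to 7.12 TPM in ctrl heart BECs. The diaphragm side of the difference (-0.84) thus starts from a high and widely spread ctrl level in a skeletal muscle. For Acta1 the BEC side (2.74) is the larger part. For Ankrd1 the diaphragm side (-1.82) is larger than the BEC side (1.35). Malsu1 had the smallest p of the named genes against diaphragm LECs, with -0.76 ± 0.24 in heart BECs and 0.70 ± 0.24 in diaphragm LECs, a difference of -1.46 ± 0.34 (adjusted p = 0.868). Against heart LECs, Bex4 was at -1.68 ± 0.54 in BECs and 1.11 ± 0.54 in LECs, a difference of -2.79 ± 0.75, and Tldc1 at -0.73 and 2.12, a difference of -2.85 ± 0.76. The other genes picked there were Ddx28 (0.003 in BECs, -2.27 in LECs), Slc16a12 (-0.58, 1.30) and Zfp971 (0.17, -1.92). Against diaphragm LECs they were Rasa4 (0.80 in BECs, -1.12 in LECs) and Trp53i11 (0.43, -0.60). None of these differences passed the adjusted test. In heart LECs the Bex4 level was 0 to 17.1 TPM in ctrl, so the LEC side of its difference starts from a wide spread. In the angII+VEGFC libraries of heart LECs, Ddx28 was at 0.193, 0 and 3.68 TPM and Zfp971 at 0, 8.05 and 5.94 TPM. Tldc1 was at 0 to 2.91 TPM in ctrl heart LECs. The LEC side of these differences thus rests in part on values at or near 0. For heart BECs, heart LECs and diaphragm LECs in turn the fold changes were 0.91, 0.46 and 0.59 for Sema3f and -0.58, -0.62 and -0.43 for Dnajb1. The heart LEC libraries of angII+VEGFC, at 201 to 272 TPM of Sema3f, lay inside their ctrl range of 70.3 to 297 TPM.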

How the data were processed

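RNA of sorted heart BECs was measured by RNA-seq in 12 libraries (ctrl 4, angII 5, angII+VEGFC 3). The authors aligned the reads to GRCm38 with STAR 2.5.3a, quantified genes from the alignments with Salmon 0.12.0, and deposited the values in TPM, which are scaled for gene length and for the total of each library. Read counts cannot be had back from TPM, so library depth is unknown, and no counting error or detection limit was computed. The authors tested counts with age, sequencing batch and surrogate variables, and counts were not used here.

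A symbol was found for 54723 of the 54752 genes in the matrix. Values were transformed to log2(TPM + 1), so that fold changes of low genes are understated. The test was limma 3.58.1 (R 4.3.3) with a mean-variance trend, run on genes that reached 1 TPM in 3 or more of the 12 libraries. One model held the 3 groups together with age and batch, with Benjamini-Hochberg adjustment at 0.05. The difference between populations was an interaction in a fit of 36 endothelial libraries, filtered in the same way. Groups, ages, mouse numbers and batches came from the labels. The labels give ages in months and the study's methods in weeks, and the labels were used. Each group held different mice, and p-values measure the spread between mice. The mouse number joins libraries of different populations from 1 mouse, so the mouse as a replicate block was an alternative for the interaction alone (consensus correlation 0.130, and correlations of the deviations of same-numbered libraries from -0.14 to 0.25).

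Library measures were compared by two-sided exact permutation tests in Python 3.11.15 with scipy 1.17.1, and figures drawn with matplotlib 3.10.9. Named genes were, in each direction, up to 12 with an adjusted p under 0.05 and no overlap, filled with the smallest unadjusted p under 0.05 among genes with a group mean of 5 TPM or more, no overlap and no predicted or clone name, and 1 gene that met this rule is not reported here. From each list the members with an unadjusted p under 0.05 were named, or else up to 3 with the smallest p. From each interaction the 5 genes with the smallest p were named by the same filters. There the level and the lack of overlap could be met in either population. A few more genes were named for their role or their values, after these were seen. The members and lists were chosen with earlier results of these data known. The scripts were tested on simulated data. Alternatives changed the pseudocount, filter, covariates, normalization and libraries in the fit.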

Additional observations from a re-analysis of the deposited data

Results flagged for a closer look

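In each group of 4 or 5 heart BEC libraries, the levels of the named genes and the summed markers were searched for 1 library that stood apart from the rest of its group by Dixon's criterion at 95%. Of 224 such groups 15 had one, where about 1 in 20 is met by chance. The 3 angII+VEGFC libraries are too few for this search. No effect of the treatment was found to differ between populations by its adjusted test.

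Ctrl 1 had summed fibroblast markers of 13774 TPM (others 1289 to 2158), and the lowest Ptprb, a phosphatase that restrains the Tie2 receptor, at 174 TPM (others 259 to 268) and the lowest Cdh5 at 110 TPM (others 175 to 188). In the same group Entpd1, which breaks down extracellular ATP, was highest in ctrl 2 at 113 TPM (others 88.8 to 92.3) and Ier2 in ctrl 4 at 3068 TPM (others 2522 to 2576).

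AngII 1 had summed fibroblast markers of 7817 TPM (others 1142 to 1570), Ccn2 at 282 TPM (others 96.9 to 145), Dnajb1 at 318 TPM (others 255 to 263) and Pir at 28.1 TPM (others 14.8 to 18.3). AngII 5 had summed erythroid markers of 31326 TPM (others 5746 to 12073), Cd74 at 141 TPM (others 42.1 to 46.5), H2-Ab1 at 66.2 TPM (others 26.9 to 37.7) and H2-Eb1 at 23.2 TPM (others 8.05 to 12.0). AngII 4 had summed Schwann and neural markers of 15.1 TPM (others 10.7 to 11.2), and angII 3 the lowest Tnni3 at 22.7 TPM (others 41.8 to 47.3). The angII libraries enter the comparison of angII+VEGFC with ctrl through the shared estimate of the spread, the covariates and the filter on low values, which sets the genes tested.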

How the results depend on the processing

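The count of 0 genes at an adjusted p under 0.05 between angII+VEGFC and ctrl was 2 in a fit of only those libraries (Acta1 at 2.68, adjusted p = 0.0492, and Gm9780 at -3.18, adjusted p = 0.0144), 1 with all endothelial libraries in the fit (Gm47086 at 1.35, adjusted p = 0.0108) and 1 without the 3 libraries with high fibroblast sums (Rnu3b2 at -5.83, adjusted p = 0.0349), and stayed at 0 under the others. The last 2 settings and the number of genes detected as a covariate were chosen after seeing the data. The count at an unadjusted p under 0.05 was 742, 450 and 679 in these fits, 771 with a filter of 5 TPM and 2235 with no filter, where fewer or more genes were tested, and 877 to 1753 when 1 library was left out. Median-of-ratios rescaling gave 403 higher and 751 lower genes of 1154, against 529 and 643 of 1172. The differences between populations had 0 calls with the mouse as a replicate block (smallest adjusted p 0.05002 for heart LECs and 0.427 for diaphragm LECs, 1569 and 598 unadjusted), 1 with no filter in each (Gm47086) and 0 to 1 in each when 1 library was left out (Gm47086 without angII+VEGFC 2, Gm22402 without angII+VEGFC 3, Gm23707 without angII+VEGFC 1, Hist1h4k without ctrl 2). Their unadjusted counts were 662 and 245 with a filter of 5 TPM, 1834 and 885 with no filter, and for diaphragm LECs 714 with a pseudocount of 0.1 and 882 under quantile normalization. In heart BECs the processed pseudogene Gm47086 was at 0 TPM in every ctrl and angII library and at 0.824 to 2.46 TPM in angII+VEGFC. The snoRNA gene Rnu3b2 was at 0 TPM in every angII+VEGFC library and also in ctrl 1, which the fit that called it left out.

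Of 1976 fold changes of 99 named genes under the alternatives, 4 had another sign: Car4 (-0.070), Apln (0.33) and Hsph1 (0.18) within batch 1, and Eln (-0.15) without the 3 libraries with high fibroblast sums. Of 320 list medians 27 moved by more than the spread between libraries. Leaving out 1 library gave 0.26 to 0.54 for capillary, 0.054 to 0.23 for arterial, -0.13 to 0.054 for VEGF family, -0.56 to -0.10 for chemokine, -0.44 to -0.12 for interferon, 0.15 to 0.34 for basement membrane and -0.21 to 0.37 for fibrillar matrix genes. Within batch 1 the medians were 0.029 for arterial, 0.58 for angiogenic, 0.19 for VEGF family, -0.15 for renin-angiotensin, -0.74 for interferon, -0.81 for antigen presentation, 0.56 for basement membrane and 0.28 for fatty acid genes, and within batch 2 they were -0.0030 for arterial, 0.16 for renin-angiotensin, -0.0052 for chemokine, -0.10 for interferon and 0.15 for basement membrane genes. Without the 3 libraries with high fibroblast sums they were -0.54 for venous and -1.01 for endocardial genes, and with a filter of 5 TPM the VEGF family had 0.17. Where fewer genes or libraries do not account for a change, the cause was not tested. Batch 1 holds 1 angII+VEGFC library, and the read depth behind every value is unknown.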

Other observations

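Genes of the glucocorticoid response and of the clock, 20 in all, had a median of 0.05 with 13 above 0, and 2 of them were higher at an unadjusted p under 0.05. Tsc22d3, a leucine zipper protein that glucocorticoids induce, was at 183, 277, 208 and 205 TPM in ctrl, 306 to 464 TPM in angII and 309, 344 and 529.8 TPM in angII+VEGFC, so that all 8 treated libraries were above the 4 ctrl libraries (fold changes of 0.73 ± 0.19 for angII+VEGFC and 0.78 for angII, log2). Sgk1, a kinase induced by the same hormones, was at 984 to 1464 TPM in ctrl and 1502 to 1798 TPM in angII+VEGFC (0.48 ± 0.16), and neither gene passed the adjusted test. Fkbp5, another target, overlapped at 5.88 to 13.3 TPM and 13.2 to 21.5 TPM (0.63 ± 0.29).

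Nitric oxide and endothelin genes had 11 of 17 above 0 and a median of 0.05. The chains of soluble guanylate cyclase, the receptor for nitric oxide that is best known from smooth muscle and pericytes, were both lower: Gucy1a1 was at 26.8 to 35.6 TPM in ctrl and 17.9, 14.1 and 30.4 TPM in angII+VEGFC (-0.64 ± 0.25), and Gucy1b1 at 14.4 to 23.2 TPM and 9.19, 9.72 and 15.7 TPM (-0.62 ± 0.25), with angII+VEGFC 3 inside the ctrl range for both. Mural cell markers summed to 389 to 510.1 TPM in ctrl and 327, 353 and 582 TPM in angII+VEGFC, with the highest sum also in angII+VEGFC 3, and their part in this difference was not tested. Ednrb, the endothelial receptor that clears endothelin, was at 108 to 192 TPM in ctrl and 194 to 215 TPM in angII+VEGFC (0.33 ± 0.14), while Nos3 stood at 264 to 350.2 TPM and 292 to 324 TPM.

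Among signalling lists, Notch genes had 11 of 16 above 0 and a median of 0.14, with the receptor Notch4 at 0.46 ± 0.20 and the glycosyltransferase Lfng at 0.71 ± 0.28. Angiopoietin and Tie genes had 7 of 8 above 0 and a median of 0.20, with Ptprb at 0.39 ± 0.14. Flow-responsive genes were divided, with 9 of 16 above 0: Ankrd1, Ccn2 and the ion channel gene Piezo1 (0.43 ± 0.19) were higher and Ccn1 lower. Coagulation genes had 11 of 15 above 0 and a median of 0.09, with Entpd1 at 0.44 ± 0.15. Leukocyte adhesion genes had 9 of 13 above 0, with Cd34, a sialomucin of capillary endothelium, at 0.34 ± 0.12 and Vcam1 lower. Genes of TGF-beta and BMP signalling (11 of 23 above 0, median -0.09), oxidative stress (10 of 19, median 0.02) and the cell cycle (9 of 23, median -0.08) had no member with an unadjusted p under 0.05.

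Of the markers of other cells, complement genes of macrophages were higher, C1qb at 2.75 to 4.18 TPM in ctrl and 5.86 to 11.9 TPM in angII+VEGFC (0.85 ± 0.37) and C1qa at 0.89 ± 0.40. The 15 leukocyte markers tested had 9 above 0 and a median of 0.24. Erythroid genes had 5 of 5 above 0 with a median of 0.86, and Hbb-bs, a beta globin gene whose reads its paralog Hbb-bt shares, was at 1738 to 2575 TPM in ctrl and 2296 to 4181 TPM in angII+VEGFC (0.86 ± 0.38). The epicardial and mesothelial list had 4 of 4 above 0 (median 0.41), the mural list 5 of 12 (median -0.06), the fibroblast list 8 of 13 (median 0.07), the lymphatic list 2 of 10 (median -0.21), the Schwann and neural list 0 of 4 (median -0.26, S100b at -0.69) and the 13 genes of the mitochondrial genome 9 (median 0.14). Of the 6 adipocyte markers none passed the filter on low values.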
